A study of Mus musculus with 6 samples.

Results

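The respiratory chain and ATP synthase genes described here are the nuclear genes whose platform symbols begin with Nduf, Sdha to Sdhd, Uqcr, Cox4i, Cox5 to Cox8 or Atp5, with pseudogenes left out. The rule found 91 genes among the 22180 genes measured with probe sets of a single gene. By symbol, 42 belonged to complex I, 8 to complex II, 7 to complex III, 17 to complex IV and 17 to complex V. They held 71 subunits, 12 assembly factors and 8 alternative or tissue-restricted isoforms of subunits. A further 12 symbols of the reference gene table that fit the rule, among them Cox6c and Uqcr10, were not analysed here, and of the 13 subunits encoded by mitochondrial DNA 0 were measured with such a probe set.

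The respiratory chain sits in the inner mitochondrial membrane. Complex I takes electrons from NADH and complex II from succinate, coenzyme Q carries them to complex III, cytochrome c carries them to complex IV, and complex IV passes them to oxygen. Complexes I, III and IV pump protons as they work, and complex V, the ATP synthase, lets the protons flow back through a turning ring and uses that turn to make ATP. Most subunits are encoded in the nucleus and imported, while a few central ones are encoded in mitochondrial DNA. Plasma cells, the lineage from which myeloma arises, spend much ATP on making and secreting protein.

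DP42 cells, a murine myeloma line, were kept for 24 h alone, beside mouse B cells or beside mouse neutrophils, and each of the 3 groups had 2 arrays of total RNA. No drug, transgene or allele is named in the labels for any group. The B-cell culture is called the control in the design text, and the labels write "neutrophils (IMC)" or "Myeloid cells" for the other partner. Flow sorting separated the cells of a co-culture before lysis, and the sample titles of these arrays name the partner cell while the cell type label is DP42. Whether replicate arrays stem from different cultures is not stated, so a p-value here measures the spread between arrays, which may be technical. Values are log2 signals per probe set, given below for replicate 1 and then replicate 2 of each group, and over the 91 genes the standard error (SE) of a difference between groups had a median of 0.10.

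Array facts that touch the results were these. The B-lineage genes Pax5, Cd79a, Cd79b and Cd22 and the plasma cell regulators Irf4 and Xbp1 lay at or above the median brightness on every array, while Ms4a1 and Tnfrsf17 were dim. Of the 10 measured B and plasma cell markers, 5 monocyte markers and 5 T cell markers, 0 passed in any comparison. Of 19 neutrophil markers, 1 passed for neutrophils against B cells (Ngp) and 5 passed for neutrophils against alone, all higher. The mean level of those 19 was 6.77 and 6.83 in cells kept alone, 6.81 and 6.88 beside B cells, and 7.18 and 7.24 with neutrophils. On the same arrays the mean of 1394 olfactory and vomeronasal receptor genes was 5.56 and 5.51, 5.27 and 5.59, and 5.13 and 5.05. The part of carried neutrophil RNA, or of the spread between dim and bright genes, in the results below was not tested, and fewer cells of a type and less RNA per cell cannot be told apart in sorted bulk RNA.

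Promoters of the members were searched because nuclear genes of the chain share a few textbook regulators. RefSeq sequence of GRCm38.p6, from 250 bases before to 50 after each gene start, was found for 76 of the 91 members. The motifs were the palindrome bound by nuclear respiratory factor 1, in capitals in the first sequences below, CCGGAAGT, bound by ETS factors including GABPA, AAGATGGCG, bound by YY1, and TCAAGGTCA, bound by ESRRA, each read on both strands with no mismatch. The nuclear respiratory factor 1 motif stood in the promoters of 7 members (9.21%), against 1.07% of all 27025 genes in the table and 2.32% of the measured genes at or above the median brightness. The YY1 motif stood in 7 (9.21%), against 1.64% and 3.79%. Of these matches only that of Atp5j began before the gene start. Those of Atp5j2, Ndufa9, Ndufaf8, Ndufc1, Ndufs4 and Ndufs7 began 10 to 35 bases after it. The ETS motif stood in 5 (6.58%), against 4.31% and 9.27%, so its share was not above that of brighter genes. The ESRRA motif stood in 2 (2.63%), against 0.47% and 0.39%. The ESRRA match of Sdhd and the nuclear respiratory factor 1 matches of Ndufaf5 and Uqcrc1 also began after the start. Cox8a had an ETS match 6 bases before the start and another 31 bases after it, and the ETS match of Ndufs3 began at the start. These windows, each upstream of the start and read 5′ to 3′ on the gene's strand with the motif in capitals, show 3 members with the nuclear respiratory factor 1 motif and 1 with each of the others; they were picked from those members to show each motif once or more outside the transcript.
Ndufaf4, chr4:24897950-24897999, plus strand: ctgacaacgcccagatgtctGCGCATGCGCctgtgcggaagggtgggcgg
Atp5k, chr5:108434420-108434469, minus strand: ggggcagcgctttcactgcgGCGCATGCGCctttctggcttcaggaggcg
Ndufa11, chr17:56717682-56717731, plus strand: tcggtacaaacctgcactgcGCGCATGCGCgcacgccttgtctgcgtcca
Atp5j, chr16:84835036-84835084, minus strand: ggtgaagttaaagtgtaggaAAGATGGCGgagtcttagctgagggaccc
Atp5h, chr11:115419931-115419978, minus strand: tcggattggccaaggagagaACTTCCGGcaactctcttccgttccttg
Atp5g3, chr2:73911350-73911398, minus strand: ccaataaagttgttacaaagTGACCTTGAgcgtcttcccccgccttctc
In Atp5h and Atp5g3 the capitals are the motif's other strand. The 21 members with any of the 4 motifs had a median log2 difference of 0.16 for neutrophils minus B cells, and the 55 with a promoter and no motif had 0.14. A match is a run of letters and not a shown binding site.

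Across the whole group, signals in the deposited scaling were by small amounts highest with neutrophils and lowest with B cells, and no single gene passed the test. The high neutrophil signals were not particular to the group. For neutrophils minus alone its median was 0.08, against 0.11 for brighter genes. Both neutrophil arrays lay above the other 4 for 35.2% of members and 42.4% of brighter genes. The low B-cell signals lay mostly on replicate 2. The members' median deviation from a gene's mean was -0.01 on B-cell replicate 1, -0.11 on replicate 2, and -0.0074 and 0.0003 alone. With arrays centred on brighter genes the median for neutrophils minus B cells was -0.02. For neutrophils minus B cells the median log2 difference of the 91 was 0.15, with 81 higher (89.0%) and 10 lower, where 80.1% of the genes at or above the median brightness, called brighter genes here, and 51.7% of all genes were higher. In limma's test 0 of 91 passed at an adjusted p under 0.05, where 0.0496% of all genes did, and the lowest adjusted p was 0.116, for Atp5e. At an unadjusted p under 0.05, 19 were higher and 1 lower, where all genes gave 8.10% and 12.0% and brighter genes gave 14.4% and 3.93%. Of the 91 members, 81 were among the brighter genes, whose own median was 0.13. Both neutrophil arrays lay above both B-cell arrays for 53 members, where this held for 30.0% of all genes and 52.1% of brighter genes, and below them for 4, where the shares were 26.7% and 10.6%.

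For neutrophils minus alone the median was 0.08, with 74 higher (81.3%) and 17 lower. This share is close to that of brighter genes, of which 79.7% were higher with a median of 0.11, while 54.4% of all genes were higher with a median of 0.02. In limma's test 0 of 91 passed, where 1.49% of all genes did, and the lowest adjusted p was 0.149. At an unadjusted p under 0.05, 8 were higher and 1 lower, where all genes gave 5.97% and 11.7% and brighter genes 9.59% and 2.71%. The arrays did not overlap for 43 members higher and 8 lower with neutrophils, where all genes gave 35.6% and 27.4% and brighter genes 60.1% and 9.86%. For B cells minus alone the median was -0.05, with 26 higher (28.6%) and 65 lower, where brighter genes had a median of -0.01 and 44.0% were higher, as were 49.5% of all genes. Here too 0 of 91 passed in limma, as did 0% of all genes, and 0 were higher and 13 lower at an unadjusted p under 0.05, where all genes gave 1.61% and 2.30% and brighter genes 0.902% and 1.79%. The arrays did not overlap for 7 members higher and 33 lower with B cells, where all genes gave 13.5% and 13.5% and brighter genes 10.7% and 14.8%. These comparisons share arrays, since each group enters 2 of them, so they are not separate evidence.

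**Figure D1:**
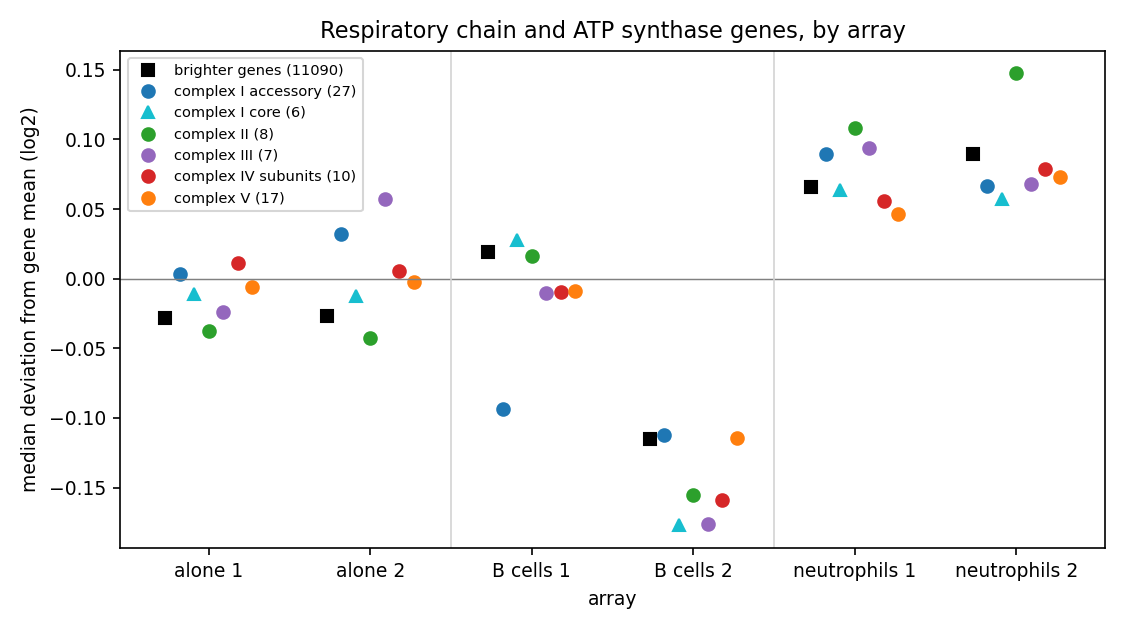
Median deviation of a gene's log2 value from its mean over the 6 arrays (vertical axis), for each array (horizontal axis); symbols are the subunit groups with their number of genes, and the black squares are the 11090 brighter genes. All groups lie below 0 on B-cell replicate 2 and above 0 on both neutrophil arrays, while on B-cell replicate 1 the complex I accessory subunits lie at -0.09 and the brighter genes at 0.02. On B-cell replicate 2 the accessory subunits lie at -0.11 and the brighter genes at -0.12.

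The B-cell arrays did not resemble each other. Over the brighter genes, B-cell replicate 1 was higher than replicate 2 by a median of 0.13, and over the 91 members by 0.09, with 62 members higher and 29 lower. For 26 of the 91 members (28.6%) both B-cell arrays lay below the other 4, against 11.7% of brighter genes and 6.93% of all genes. Of these 26, complex I gave 16, complex II 0, complex III 2, complex IV 4 and complex V 4. The count was 13 after quantile normalisation, against 8.17% of brighter genes, and 8 with arrays centred on brighter genes, against 5.76%, so its size depended on scaling. It was 56 without B-cell replicate 1, where 58.8% of brighter genes shared the order. Without any other single array it was 28 to 34, where 12.4% to 18.7% of brighter genes did. Leaving out an array cannot lower this count, so these values do not show that it is stable. Both B-cell arrays lay above the other 4 for 3 members, Atp5j2, Cox4i2 and Cox6b2, against 6.34% of all genes and 3.44% of brighter genes. Both neutrophil arrays lay above the other 4 for 32 members (35.2%), against 23.4% of all genes and 42.4% of brighter genes, and below them for Cox4i2 and Cox8c, against 19.0% and 6.41%. Both alone arrays lay above the other 4 for 5 members, Atp5g2, Atp5l, Cox6a2, Cox7a1 and Ndufb7, against 5.39% and 2.18%, of which Atp5g2 and Ndufb7 are named here after their values were seen.

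Complex I is the NADH dehydrogenase, in which a few core subunits carry the flavin and iron-sulfur clusters and many accessory subunits surround and steady them. Of its 27 measured accessory subunits most had lower signals in the B-cell cultures than in either other group. Their median log2 difference was 0.19 for neutrophils minus B cells (26 of 27 higher, where 80.1% of brighter genes were), 0.05 for neutrophils minus alone (23 higher) and -0.10 for B cells minus alone (24 of 27 lower), with 0 passing in limma in each. With quantile normalisation 16, 6 and 4 of the 27 were higher in these comparisons, and with arrays centred on brighter genes 15, 5 and 7, so the direction for neutrophils minus alone turned with scaling while that for B cells minus alone did not. Both B-cell arrays lay below the other 4 for 13 of the 27 (48.1%), against 11.7% of brighter genes and 6.93% of all genes. This count was 6 (22.2%) after quantile normalisation, where brighter genes gave 8.17%, and 3 (11.1%) with arrays centred on brighter genes, where they gave 5.76%. Without B-cell replicate 1 it was 20 (74.1%), where brighter genes gave 58.8%, and leaving out an array cannot lower it. The array medians of their deviations were 0.0034 and 0.03 on the alone arrays, -0.09 and -0.11 on the B-cell arrays and 0.09 and 0.07 on the neutrophil arrays. The B-cell arrays were thus alike in this group, unlike the 6 core subunits, whose B-cell values were 0.03 and -0.18. Brighter genes stood at 0.02 and -0.12 on the B-cell arrays, so the accessory subunits lay below them on replicate 1 only. The median for B cells minus alone was below 0 in all 15 alternatives tried, from -0.13 to -0.07. Some of these could not move it, since they keep the same B-cell and alone means. They were only brighter genes, which include all 27, other moderation, only the 4 arrays compared, the replicate block and leaving out a neutrophil array.

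Ndufc1, a small membrane subunit, read 8.24 and 8.40 (alone), 8.13 and 8.06 (B cells) and 8.46 and 8.51 (neutrophils). Ndufa7 read 9.50 and 9.45, 9.26 and 9.21, and 9.58 and 9.58. Ndufa1, needed for the complex to form, read 8.41 and 8.56, 8.13 and 8.19, and 8.47 and 8.44. In all 3 genes both B-cell arrays were the lowest and did not overlap the other groups. The differences for neutrophils minus B cells were 0.39 ± 0.10 (SE) for Ndufc1 (adjusted p = 0.147) and 0.34 ± 0.09 for Ndufa7 (adjusted p = 0.152). For B cells minus alone Ndufa1 stood at -0.33 ± 0.10, a 0.797-fold signal, with an adjusted p of 1. Ndufb11 had another order, with 7.39 and 7.37 (alone), 7.64 and 7.24 (B cells) and 7.74 and 7.79 (neutrophils). Its B-cell arrays straddled the alone arrays, both neutrophil arrays were above all others, and the difference from alone was 0.38 ± 0.13 (adjusted p = 0.200). It passed for neutrophils minus alone (limma, adjusted p = 0.0352) when the B-cell arrays were left out of the fit. The difference was the same there and only its SE fell, to 0.07. The share of all genes passing in that fit is not given here, so this pass is not set against a background. Ndufa9 (0.28 ± 0.11), Ndufb9 (0.27 ± 0.09) and Ndufa6 (0.26 ± 0.10), chosen after their values were seen, also had both B-cell arrays below the other 4 and did not pass for neutrophils minus B cells.

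The 6 core subunits had medians of 0.13, 0.07 and -0.02 for neutrophils minus B cells, neutrophils minus alone and B cells minus alone, near those of brighter genes. Ndufs1, the largest core subunit, read 10.35 and 10.34 (alone), 10.58 and 10.14 (B cells) and 10.54 and 10.49 (neutrophils). Ndufv1, which binds NADH, read 10.37 and 10.35, 10.45 and 10.23, and 10.41 and 10.49. For both genes the B-cell arrays lay on either side of the alone arrays, and the differences for neutrophils minus B cells were 0.15 ± 0.14 and 0.11 ± 0.11. Ndufa4, counted here by its symbol although the protein is now placed in complex IV, differed by 0.06 ± 0.10, and its isoform Ndufa4l2 by 0.02 ± 0.09.

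The 8 complex I assembly factors, which build the complex and do not stay in it, had medians of 0.19, 0.22 and 0.06 in the same order of comparisons. Ndufaf5, which modifies the core subunit Ndufs7 during assembly, read 7.60 and 7.56 (alone), 7.55 and 7.41 (B cells) and 7.80 and 7.83 (neutrophils). Both neutrophil arrays were the highest, and the differences were 0.33 ± 0.10 from B cells (adjusted p = 0.165) and 0.23 ± 0.10 from alone (adjusted p = 0.258). Ndufaf8 was the exception in direction, at -0.17 ± 0.12 from B cells, with 9.29 on B-cell replicate 1 and 8.97 on replicate 2 against 8.99 and 8.93 with neutrophils, which overlap.

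**Figure D2:**
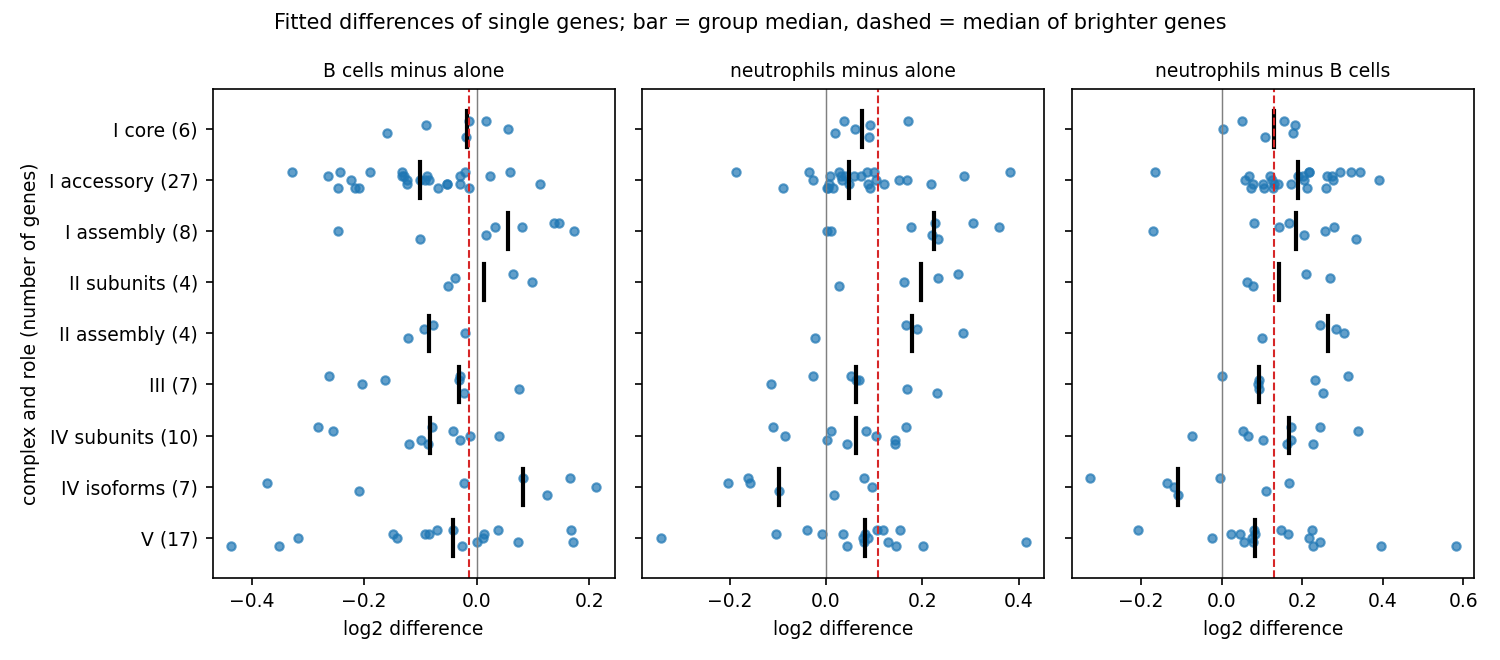
Fitted log2 difference of each gene (horizontal axis) in 3 comparisons, grouped by complex and role (vertical axis, number of genes in brackets); black bars are group medians and the dashed red line is the median of brighter genes. The median of the complex I accessory subunits lies left of the dashed line for B cells minus alone, at -0.10 against -0.01. That of the complex IV isoforms lies left of it for neutrophils minus B cells, at -0.11. Most of these isoforms are dim, while the line is for brighter genes. Single genes of both groups lie to its right.

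Complex II, succinate dehydrogenase, is also an enzyme of the tricarboxylic acid cycle and has no subunit from mitochondrial DNA. In the deposited scaling all 8 of its members were higher with neutrophils than with B cells (median 0.23), where 80.1% of brighter genes were, and 7 of 8 were higher than alone (median 0.18), with 0 passing in limma. After quantile normalisation 6 of the 8 were higher with neutrophils than with B cells, and 5 with arrays centred on brighter genes. Sdha, the flavin subunit that oxidises succinate, read 10.80 and 10.83 (alone), 11.00 and 10.75 (B cells) and 11.01 and 11.16 (neutrophils). Sdhb, the iron-sulfur subunit, read 9.20 and 9.21, 9.31 and 9.02, and 9.43 and 9.44. In both genes the neutrophil arrays were the highest, and B-cell replicate 1 was higher and replicate 2 lower than the alone arrays. The differences from B cells were 0.21 ± 0.11 for Sdha (adjusted p = 0.303) and 0.27 ± 0.11 for Sdhb (adjusted p = 0.239), and those from alone were 0.27 ± 0.11 and 0.23 ± 0.11. The membrane anchors Sdhc and Sdhd differed from B cells by 0.06 ± 0.10 and 0.08 ± 0.09, which is within the error.

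Of the 4 assembly factors of complex II 0 passed the test. Sdhaf3, which helps to mature the iron-sulfur subunit, read 7.75 and 7.77 (alone), 7.70 and 7.78 (B cells) and 8.02 and 8.07 (neutrophils). The alone and B-cell arrays coincided and both neutrophil arrays lay above them, at 0.30 ± 0.09 from B cells (adjusted p = 0.175) and 0.28 ± 0.09 from alone (adjusted p = 0.177). Sdhaf2, which helps to attach the flavin to Sdha, differed by 0.28 ± 0.10 and 0.19 ± 0.10. Sdhaf4, one of the 10 members below the median brightness, differed by 0.10 ± 0.10 and -0.02 ± 0.10. Over all 12 assembly factors in the rule the medians were 0.22 from B cells, 0.21 from alone and -0.0024 for B cells minus alone.

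Complex III, the cytochrome c reductase, had 7 measured members, all higher with neutrophils than with B cells in the deposited scaling (median 0.09). Of brighter genes 80.1% were higher, with a median of 0.13. The members higher were 5 after quantile normalisation and 3 with arrays centred on brighter genes. Uqcrh, the hinge protein near cytochrome c1, read 10.03 and 9.97 (alone), 9.78 and 9.69 (B cells) and 10.02 and 10.08 (neutrophils). Both B-cell arrays were lowest, and the alone and neutrophil arrays overlapped. The differences were 0.31 ± 0.09 for neutrophils minus B cells (adjusted p = 0.174) and -0.26 ± 0.09 for B cells minus alone. Uqcrfs1, the Rieske iron-sulfur protein, read 8.65 and 7.93 on the B-cell arrays, and its SE of 0.20 was the largest of all members. Its neutrophil arrays, at 8.62 and 8.46, lay between those values, so the difference of 0.25 was not larger than the gap between the B-cell arrays. Uqcrq differed by 0.23 ± 0.10, and the core protein Uqcrc1 by 0.09 ± 0.11.

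Complex IV, cytochrome c oxidase, has several subunits with more than 1 isoform. Its 7 alternative isoforms are given apart from the 10 other members, which are called common subunits here by their symbols alone. The common subunits had a median of 0.17 for neutrophils minus B cells, with 9 of 10 higher, where 80.1% of brighter genes were. For B cells minus alone their median was -0.08, with 9 of 10 lower, where 44.0% of brighter genes were higher. Over all 17 complex IV members the median for neutrophils minus B cells was 0.06 after quantile normalisation and -0.06 with arrays centred on brighter genes. Cox5a, which binds a thyroid hormone metabolite and regulates the enzyme, read 9.85 and 9.94 (alone), 9.88 and 9.40 (B cells) and 9.995 and 9.96 (neutrophils). Of the B-cell arrays only replicate 2 was low, and the difference of 0.34 ± 0.15 (adjusted p = 0.247) was 0.10 without it and 0.58 without replicate 1. Cox7a2 had the same shape, with 11.39 and 11.00 on the B-cell arrays and 11.45 and 11.44 on the neutrophil arrays, and a difference of 0.25 ± 0.13. Cox4i1, the usual form of subunit 4, read 10.27 and 10.46 (alone), 10.20 and 9.97 (B cells) and 10.29 and 10.22 (neutrophils), with both B-cell arrays lowest and -0.28 ± 0.12 for B cells minus alone. Cox5b, Cox6a1, Cox6b1, Cox7a2l and Cox8a differed for neutrophils minus B cells by 0.06, 0.10, 0.23, 0.05 and 0.16. A second, much dimmer probe set of Cox5b gave 0.36 in the same direction, so the size for this gene depended on the probe set.

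The 7 alternative isoforms of complex IV had a median of -0.11 for neutrophils minus B cells and 0.08 for B cells minus alone, with 5 of 7 and 3 of 7 lower. The 5 lower with neutrophils than with B cells were all dim, and the 2 higher, Cox6a2 and Cox7a1, were brighter genes. Of brighter genes 80.1% were higher, against 51.7% of all genes. The part of brightness in this median was not tested. Cox4i2, a form of subunit 4 known from lung and from hypoxic cells, read 7.26 and 7.21 (alone), 7.32 and 7.47 (B cells) and 7.20 and 6.94 (neutrophils). Both B-cell arrays were the highest and both neutrophil arrays the lowest, with a difference of -0.33 ± 0.12 (adjusted p = 0.205), the lowest of all members. Cox6a2, the heart and muscle form of subunit 6a, was above the median brightness and read 10.87 and 10.87 (alone), 10.37 and 10.63 (B cells) and 10.57 and 10.77 (neutrophils). Both alone arrays were the highest for this gene, and the differences from alone were -0.37 ± 0.12 with B cells and -0.20 ± 0.12 with neutrophils (adjusted p = 1 and 0.387). Cox7a1, the muscle form of subunit 7a, also had its highest values alone (8.14 and 8.23), against 7.98 and 7.98 (B cells) and 8.09 and 8.08 (neutrophils). Cox4i2, Cox6b2, Cox7b2, Cox8b and Cox8c were dim, and Cox6b2 stood 0.21 ± 0.11 higher with B cells than alone. Of the 8 isoforms, 5 of complex IV and Ndufa4l2 were below the median brightness, where no detection call was used and low signals are compressed.

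**Figure D3:**
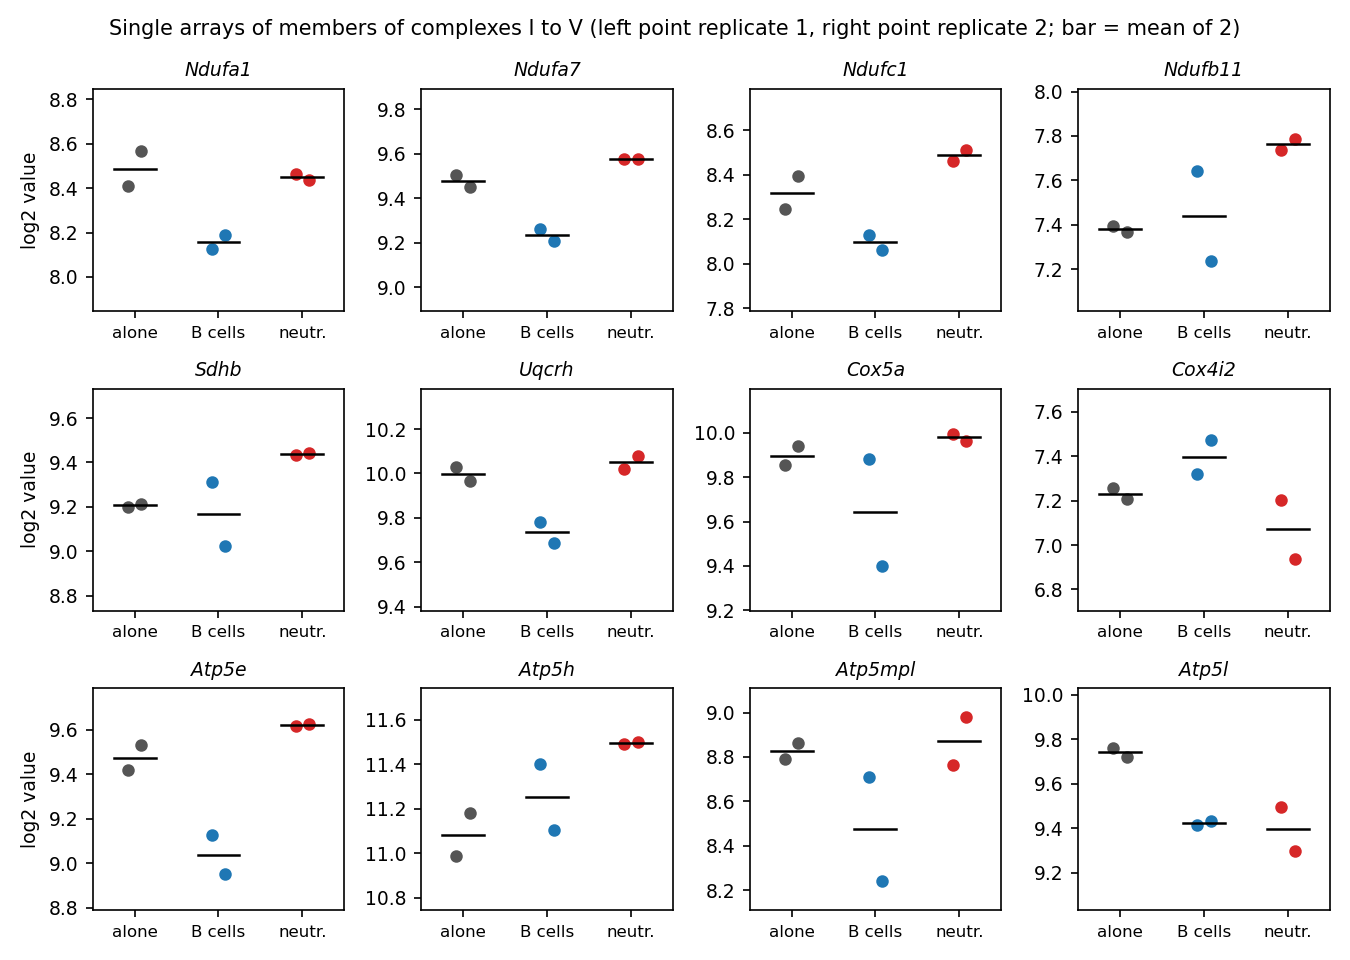
Log2 value (vertical axis, each panel spanning 1 log2 unit) of 12 members on each array, with replicate 1 left and replicate 2 right in each group and bars at the mean of 2. Both B-cell points are the lowest for Ndufa1, Ndufa7, Ndufc1, Uqcrh, Atp5e and Atp5mpl, the alone points are the highest for Atp5l, and the B-cell points straddle the alone points for Ndufb11 and Sdhb.

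Complex V had 17 members, with medians of 0.08 for neutrophils minus B cells, 0.08 for neutrophils minus alone and -0.04 for B cells minus alone. With arrays centred on brighter genes both medians that involve neutrophils were below 0, at -0.08 and -0.05. The catalytic head had 5 measured members, with a median of 0.08 for neutrophils minus B cells. Atp5a1 and Atp5b, the alpha and beta subunits that hold the catalytic sites, differed for neutrophils minus B cells by 0.15 ± 0.09 and 0.02 ± 0.09. Atp5e (probe set 17395165), the epsilon subunit of the central stalk, read 9.42 and 9.53 (alone), 9.12 and 8.95 (B cells) and 9.61 and 9.62 (neutrophils). The 3 groups did not overlap, and the difference from B cells was 0.58 ± 0.10 (adjusted p = 0.116), with -0.44 ± 0.10 for B cells minus alone (adjusted p = 0.887). When dim genes were left out of the fit and the adjustment, it passed for neutrophils minus B cells (limma, adjusted p = 0.0260), with the same difference. The share of brighter genes passing in that fit is not given here. A second, dimmer probe set named for Atp5e gave the opposite sign, at -0.19, reading 8.57 and 8.70 (B cells) and 8.41 and 8.49 (neutrophils). The direction of Atp5e thus depended on the probe set read.

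The peripheral stalk holds the head still while the ring turns. Its subunit d, Atp5h (17315713), read 10.98 and 11.18 (alone), 11.40 and 11.11 (B cells) and 11.49 and 11.50 (neutrophils). Both neutrophil arrays were the highest, while the B-cell and alone arrays overlapped. The difference from alone, 0.41 ± 0.12 or 1.33-fold, was the largest of any member in that comparison (adjusted p = 0.150), and a second probe set of Atp5h gave 0.69 in the same direction. Among the membrane subunits, Atp5mpl (also called Mp68) read 8.79 and 8.86 (alone), 8.71 and 8.24 (B cells) and 8.76 and 8.98 (neutrophils). Both B-cell arrays were the lowest, by little for replicate 1, and the difference from B cells was 0.40 ± 0.15 (adjusted p = 0.223). Atp5l, subunit g, which helps ATP synthases to pair, had another pattern, with 9.76 and 9.72 (alone), 9.41 and 9.43 (B cells) and 9.50 and 9.30 (neutrophils). Its values were lower in both co-cultures than alone, by -0.32 ± 0.10 with B cells (adjusted p = 1) and -0.34 ± 0.10 with neutrophils (adjusted p = 0.149). The dim Atp5j2, subunit f, was lower with neutrophils than with B cells, at -0.21 ± 0.10. Of the 10 members with a second probe set, the sign differed between the probe sets for 4 in neutrophils minus B cells, 5 in neutrophils minus alone and 2 in B cells minus alone.

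Other genes of mitochondrial energy metabolism, from lists set apart from the rule, had differences of similar size. In each comparison 0 of their members passed in limma, against 0.0496%, 1.49% and 0% of all genes. For neutrophils minus B cells the median was 0.13 over 15 further chain proteins and electron carriers (14 higher), 0.17 over 33 further assembly factors (32 higher), 0.16 over 17 enzymes of the tricarboxylic acid cycle (17 higher), 0.23 over 18 regulators and mitochondrial DNA maintenance genes (17 higher) and 0.20 over 71 mitochondrial ribosome genes (70 higher). The median of brighter genes was 0.13, and 80.1% of them were higher. For B cells minus alone the same lists had medians of -0.03, -0.02, -0.04, -0.04 and -0.05.

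The gene with the largest difference in each list was named by rule. Tfam, which packages and transcribes mitochondrial DNA, read 9.16 and 9.13 (alone), 9.20 and 8.66 (B cells) and 9.42 and 9.42 (neutrophils), a difference of 0.49 ± 0.16 from B cells (adjusted p = 0.187). B-cell replicate 1 was close to the alone arrays and replicate 2 was low, and both neutrophil arrays were the highest. Mrpl54, a protein of the large mitochondrial ribosomal subunit, read 9.31 and 9.47, 9.18 and 9.02, and 9.60 and 9.57, a difference of 0.49 ± 0.10 (adjusted p = 0.133) with no overlap between any of the groups. Dmac2l, a factor of the ATP synthase, Coa7, an assembly factor of complex IV, and Dld, a shared subunit of several dehydrogenase complexes, differed by 0.46 ± 0.15, 0.36 ± 0.10 and 0.30 ± 0.15. Of the regulators whose motifs were searched, chosen after their values were seen, Nrf1, Gabpa and Yy1 differed by 0.31, 0.31 and 0.17, and Esrra by -0.11, with adjusted p of 0.216, 0.222, 0.303 and 0.528.

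**Figure D4:**
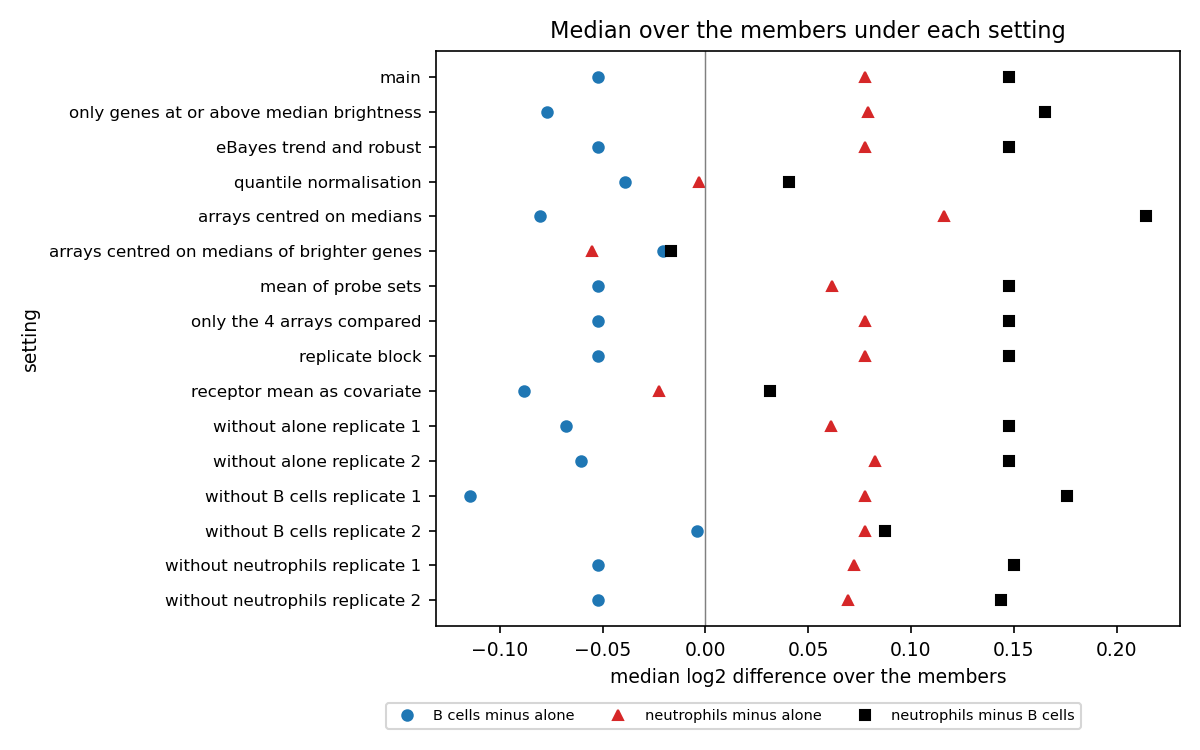
Median log2 difference over the members (horizontal axis) in each of 3 comparisons under each setting (vertical axis). The median for B cells minus alone stays below 0 in every setting shown, while both medians that involve neutrophils are below 0 when arrays are centred on brighter genes. Some settings cannot move a median, such as other moderation, the replicate block or leaving out an array of the group not compared.

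The size of the members' median differed between scalings. The median for neutrophils minus B cells was 0.15 as deposited, 0.04 after quantile normalisation, 0.21 with arrays centred on their medians and -0.02 with arrays centred on the median of brighter genes. With the receptor gene mean as a covariate it was 0.03. The sign of a small difference against neutrophils is therefore relative to the genes chosen as the zero. Without B-cell replicate 1, 18 of 91 members passed in limma for neutrophils minus B cells, but so did 5453 of all 22180 genes, and without any other single array 0 members passed. The median was 0.18 without B-cell replicate 1 and 0.09 without replicate 2. For B cells minus alone the corresponding medians were -0.11 and -0.0039, so that difference rested on B-cell replicate 2 for the whole group. The complex I accessory subunits were lower than alone on both B-cell arrays. They lay below brighter genes only on B-cell replicate 1, at -0.09 against 0.02, and not on replicate 2, at -0.11 against -0.12.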

How the data were processed

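Total RNA of sorted DP42 cells was measured on 6 Affymetrix arrays. The deposited table holds log2 values per probe set from RMA, which the submitters' processing notes name as the authors' tool. RMA subtracts background, normalises between arrays and summarises probes. The array model and annotation build are not given in the sources used here. Of 41345 probe sets, 23521 carried 1 gene in GEO's platform annotation, 1814 several and 16010 none, and only the first kind was used. Each of 22180 genes was read from its brightest probe set, judged by the mean of all 6 arrays; 1082 genes had several. Genes whose mean was at or above 7.30, the median of those means, are called brighter genes.

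Group means were fitted with limma 3.58.1 (R 4.3.3) on all 6 arrays, with eBayes, two-sided tests, 3 residual and 5.55 prior degrees of freedom, and Benjamini-Hochberg adjustment over all genes at 0.05. The number of arrays limits the precision. Medians of lists are descriptions without a test. The members, the lists and the covariate of receptor genes were chosen with earlier results of these data known, and the split of complex I and V by role follows textbook knowledge and was made after the values were seen. Genes named in the text were, per complex, the 3 with the largest absolute difference for neutrophils minus B cells and the 1 in each other comparison, the 2 highest and 2 lowest in each comparison, fixed isoform pairs and core subunits, and the largest of each pathway list; others are named as examples of a count or said to be chosen after their values were seen. The fit was tested on simulated data. Promoters came from RefSeq, matched by gene identifier. Same-numbered arrays of different groups did not deviate together (correlations of -0.151, 0.0651 and -0.0742 over genes), so the numbers were not taken as pairs. Alternatives were other scalings, filters, moderation, probe set rules, a block, a covariate and leaving out each array; the counts of array order under them were added after seeing the data. Plots were drawn with matplotlib 3.10.9.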

Additional observations from a re-analysis of the deposited data

How the results depend on the processing

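The count of members passing limma for B cells minus alone was 0 under every alternative run, with adjusted p thresholds of 0.05 and 0.1. For neutrophils minus B cells it was 1 among brighter genes only, and 0 to 18 when each array was left out, the 18 without B-cell replicate 1. For neutrophils minus alone it was 1 (Ndufb11) with only the 4 arrays compared. The shares of all genes passing among brighter genes only, or with the 4 arrays, are not given here, so these counts have no background beside them. The median for neutrophils minus B cells was 0.0405 with quantile normalisation, 0.21 with arrays centred on medians, -0.0169 with arrays centred on brighter genes, 0.0314 with the receptor mean as a covariate and 0.0872 to 0.176 when each array was left out. For neutrophils minus alone it was -0.0031, -0.0552 and -0.0227 with quantile normalisation, brighter-gene centring and the covariate. For B cells minus alone it was -0.1145 to -0.0039 when each array was left out. Centring moved the median of all genes for neutrophils minus B cells to 0.08 (array medians) or -0.15 (brighter genes), so the members' medians are relative to those shifts. The causes were not tested beyond these fits.

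With the replicate number as a block, 0 members passed in each comparison, while 18 members were higher and 1 lower at an unadjusted p under 0.05 for neutrophils minus B cells. The medians were again 0.15, 0.08 and -0.05. Each group has 1 array of each number, so this block could change the SE but not the differences. A crossed pairing of B-cell and neutrophil numbers, added after seeing the data, also called 0 members. The 2 arrays in each group limit what can pass.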
